A study of Mus musculus with 50 samples.

Results

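The genes described here mark tissue that borders or crosses the hippocampus rather than its neurons: 12 genes of the choroid plexus epithelium, 11 of the meninges, 12 of the endothelium and 4 of the mural cells of vessels. They were chosen by name from a list of 39 genes, and 38 of them had at least 1 probe on the Agilent array, out of 34770 genes on it. The remaining one, Slc4a5, had none. A member's value is the mean over its probes, and the 38 members were measured by 51 probes.

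RNA came from both hippocampi of male mice of a C57/BL6j background. Of these, 5 were wild-type (WT) and 5 were transgenic (TG). The TG mice over-expressed δC-DCLK-short, a splice variant of Dclk1 whose kinase is constitutively active according to the paper. The animals' age and the promoter that drives the transgene are not given in the sources used here. Each of the 10 Agilent arrays held 1 WT and 1 TG mouse in the dyes Cy3 and Cy5, and each mouse was on 2 arrays, once in each dye and with a different partner. An array is named here by its Cy3 mouse and then its Cy5 mouse, so WT1/TG4 had mouse WT1 in Cy3.

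The choroid plexus is the epithelium that hangs in the ventricles and secretes the cerebrospinal fluid. In the brain, transthyretin (Ttr) is made almost entirely there, and the lateral ventricle lies against the hippocampus. The meninges are sheets of fibroblasts that lay down collagen on the brain surface and follow it into the hippocampal fissure. Endothelial cells line the vessels and form the blood-brain barrier, and pericytes and smooth muscle cells wrap them. In whole dissected tissue, more cells of a type and more RNA per cell cannot be told apart.

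The identity of the channels limits what follows. The study's own table of expression values follows an exchange of the 5 arrays labelled WT/TG with the 5 labelled TG/WT, in their listed order. Every signed value below is log2 of TG over WT as the arrays are labelled. It is the opposite of the study's direction, and each sign turns under the exchange. The size and p-value of a mean over the 10 arrays do not change with it, whereas values per mouse do. Fits without both arrays of a mouse use the labels to choose these arrays. Under the exchange, the 2 arrays of a labelled mouse need not share a mouse.

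The markers of the tissue were set against background. Of the 13 hippocampal neuron markers with a probe (Prox1, Neurod2, Calb1 and others), all 13 were well above background on every array in both channels, as were all probes of 34 of the 38 members. The exceptions were Cldn2, whose only probe was not, and Cldn1, Col1a1 and Cdh5, of which 1 probe each was. No member probe was saturated. Over all genes, 24201 of 34770 were well above background in the same way, as were 8 of 9 genes of the thalamus and habenula. The 13 of 13 thus do not tell the hippocampus from neighbouring tissue. Over its 4 probes, Dclk1 itself averaged -0.07 ± 0.03 on the log2 scale (SE, n = 10 arrays), with a limma false discovery rate (FDR) of 0.273. The position of these probes relative to the transgene was not tested.

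Of the 38 members, 4 were called at an FDR of 0.1 by limma on the array log ratios, against 8.10% of all genes. As labelled, Igfbp2 was the only member called higher in TG, against 4.00% of all genes, and Cldn5, Slco1a4 and Itm2a were called lower, against 4.10%. The last 3 are endothelial. The called ratios were small: the mean fold was 1.17 for Igfbp2, 1.19 for Cldn5, 1.15 for Slco1a4 and 1.23 for Itm2a. No member had the same sign on all 10 arrays, which 2.28% of all genes had. The median ratio over the members was -0.04, beside 0.003 over all genes.

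**Figure D1:**
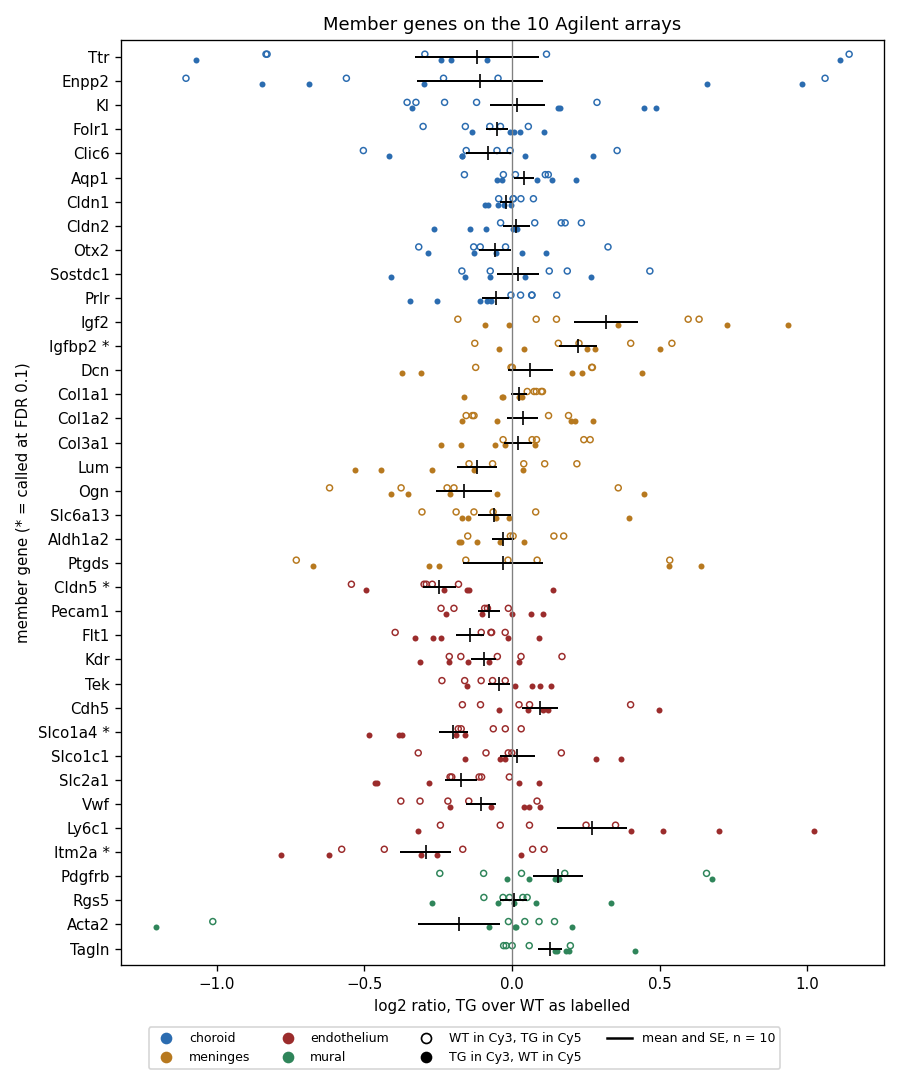
Log2 ratio (horizontal, TG over WT as labelled) of each of the 38 members (rows, coloured by compartment) on the 10 arrays, with open points for the 5 arrays with WT in Cy3, filled points for the 5 with TG in Cy3, and the mean with its SE in black. Ttr and Enpp2 range from below -1 to above 1 around means near 0, whereas Cldn5 and Slco1a4 lie below 0 on 9 arrays.

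Among the 11 choroid plexus genes none was called, and Ttr and Enpp2 had the largest spread of all 38 members. The median SD over the arrays was 0.188 for the compartment, beside 0.223 for the meningeal, 0.181 for the endothelial and 0.225 for the mural members and 0.119 over all genes, and Folr1, Aqp1 and Cldn1 lay near the median gene or below it. Over 18 other choroid plexus genes the median SD was 0.121, so the members' larger spread was not seen in that list. Ttr, the carrier of thyroxine in the cerebrospinal fluid, had log2 ratios from -1.07 on array TG5/WT6 to 1.14 on array WT3/TG5, with a median of -0.22. Its mean was -0.12 ± 0.21 (SE, n = 10 arrays, limma FDR 0.861), so the ratios lay on both sides of 0 and the genotypes were not distinguished. Enpp2, the secreted enzyme autotaxin, ranged from -1.10 on WT6/TG1 to 1.06 on WT3/TG5 with a median of -0.27. The mean of Enpp2 was -0.11 ± 0.21 (SE, n = 10 arrays, limma FDR 0.88). The SDs over the arrays, 0.755 for Ttr and 0.766 for Enpp2, stood at the 99.6th percentile of all genes.

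The raw intensities of Ttr show the size of this spread, and they show where it does not follow the labels. Mouse TG3 read 982 in Cy5 and 940 in Cy3, and mouse WT5 read 945 in Cy3 and 896 in Cy5, so both were high in both dyes. Mouse TG4 read 116 in Cy5 and 144 in Cy3, and mouse TG2 read 98.8 in Cy5 and 103 in Cy3. These 4 mice gave like values in both dyes, and 1 WT and 1 TG mouse were the high ones.

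The other 6 mice did not all do so. Mouse TG1 read 207 in Cy5 on array WT6/TG1 but 929 in Cy3 on array TG1/WT5. Mouse TG5 read 642 in Cy5 on WT3/TG5 and 133 in Cy3 on TG5/WT6. WT1 read 299 in Cy3 and 67.1 in Cy5, WT3 read 403 and 119, and WT4 read 141 and 462. Only WT6, at 224 and 265, was close. A mouse that read high in one dye and low in the other does so here for a gene whose 2 readings on the same array were alike: the correlation between Cy3 and Cy5 of the same array was 0.86 for Ttr.

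The same comparison was made for every member on levels, that is log2 intensities after loess and quantile normalization of the average intensities, centred per dye. The correlation (Pearson's r over the 10 mice, given as a description) between a mouse's Cy3 level and its Cy5 level was 0.36 for Ttr as labelled and 0.27 with the arrays exchanged. For Enpp2 it was 0.30 and 0.44. For Igf2, a growth factor made by the meninges and choroid plexus in the adult brain, it was 0.24 as labelled and 0.67 exchanged, and for Igfbp2, a binding protein of that factor, -0.02 and 0.58. Cldn5 was at 0.83 and 0.86, Pdgfrb at 0.85 and 0.88, and Acta2 at 0.95 and 0.97. The exchange raised r for 30 of the 38 members. As labelled, 5 members were above 0.5, and with the arrays exchanged 15 were.

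**Figure D2:**
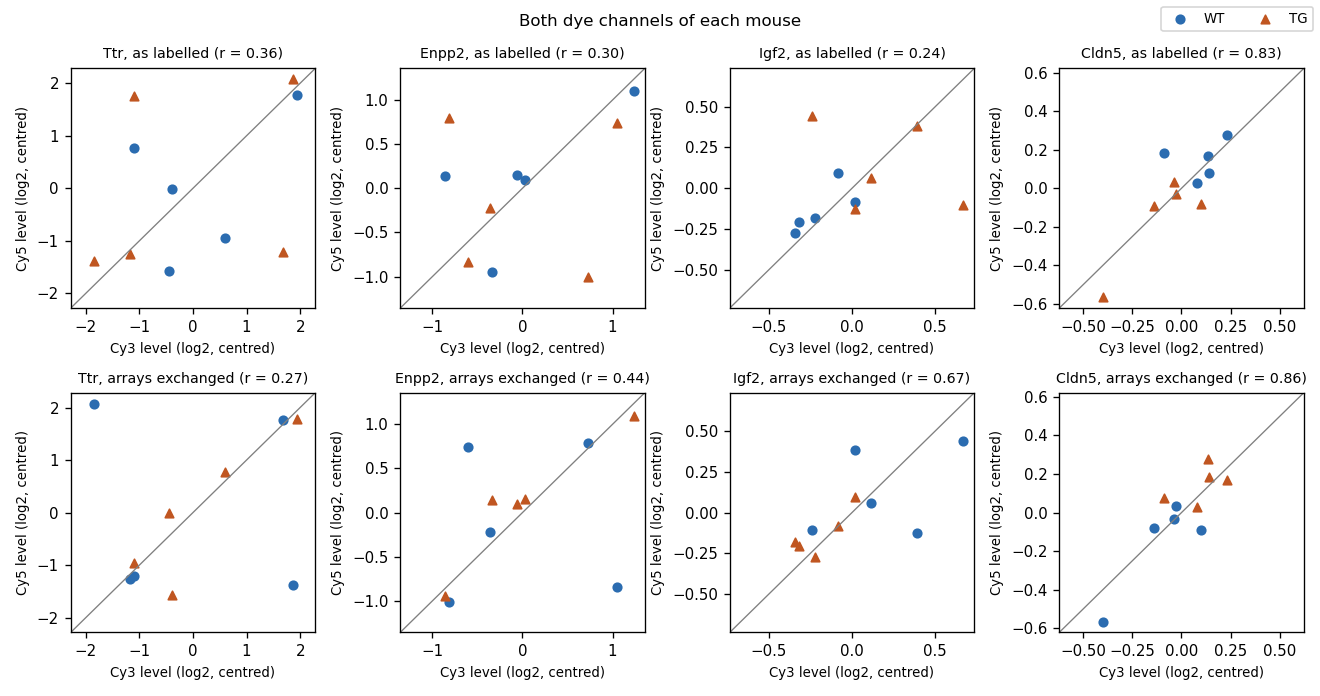
Cy5 level against Cy3 level (log2, centred per dye) of the 10 mice for Ttr, Enpp2, Igf2 and Cldn5, with the mice as labelled in the top row and with the arrays exchanged in the bottom row; the grey line marks equal values. Cldn5 lies along the line in both rows (r 0.83 and 0.86), Igf2 moves towards it with the exchange (0.24 to 0.67), and Ttr leaves it in both (0.36 and 0.27).

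Over the compartments, the median r was 0.26 for the choroid plexus genes as labelled and 0.31 exchanged. It was 0.16 and 0.29 for the meningeal genes, 0.34 and 0.50 for the endothelial genes, and 0.47 and 0.62 for the 4 mural genes. Over all genes the medians were 0.07 and 0.10, and over the 24201 genes well above background 0.13 and 0.16. The r between the 2 channels of the same array had a median of 0.39 over the members and 0.64 over all genes.

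Prlr, the prolactin receptor, Col1a1 and Cldn1 were at 0.95, 0.91 and 0.93 in this last measure but at 0.28, -0.25 and -0.05 between the channels of a labelled mouse. Their levels thus followed the array more than the mouse under these labels. The same held over all genes by the medians, 0.64 and 0.07. Col1a1 and Cldn1 also had probes that were not well above background on every array.

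The levels of most choroid plexus members moved with those of Ttr over the mice. Levels per mouse (the mean of its 2 channels, as labelled) were correlated with those of Ttr over the 10 mice, and p-values by permutation were adjusted over 34 relations of members with a lead gene of their compartment. These p-values treat the mice as independent, although each mouse shares both its arrays with others and the channels of an array were alike (r 0.86 for Ttr, 0.92 for Aqp1 and 0.79 for Folr1). Of the 10 relations with Ttr, 9 passed at an FDR of 0.1, all positive, with a median r of 0.81 over the 10. The share of all genes that relate to Ttr at this level was not computed. Among the 9 was Cldn2, whose only probe was not well above background on every array. Cldn1, for which 1 of 2 probes was, was also among them. Clic6, a chloride channel protein, reached r = 0.96 and Spearman's rho = 0.94 (permutation p = 2e-05 and 0.00023, adjusted p = 0.00051 and 0.00306). The water channel Aqp1 reached r = 0.95 and rho = 0.93 (permutation p = 0.00015 and 0.00027, adjusted p = 0.0017 and 0.00306). Otx2, the homeobox regulator of choroid plexus epithelium, had r = 0.93 and rho = 0.84 (permutation p = 0.00021 and 0.00378, adjusted p = 0.00178 and 0.0321). The folate receptor Folr1 had r = 0.77 and rho = 0.82 (permutation p = 0.0081 and 0.00566, adjusted p = 0.0344 and 0.0385). By rank, these 4 relations alone passed.

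Without the 2 mice farthest from the median of Ttr, TG3 and WT5, r was 0.95 for Clic6, 0.90 for Folr1, 0.82 for Otx2 and 0.80 for Aqp1. Enpp2 fell from 0.85 to 0.40 without them, Kl (the ageing-related protein Klotho) from 0.86 to 0.60, Cldn1 from 0.74 to 0.44, Cldn2 from 0.70 to 0.31 and Sostdc1, a secreted inhibitor of BMP signalling, from 0.70 to 0.11. The relations of these 5 genes thus rest largely on 2 mice as labelled, and these 2 share array WT5/TG3. As deviations from the genotype mean, r was 0.85 for Enpp2 and 0.97 for Clic6. Over the ratios of the 10 arrays, given as a description since arrays share mice, r with Ttr was 0.90 for Clic6, 0.81 for Enpp2, 0.77 for both Otx2 and Aqp1, 0.75 for Sostdc1, 0.62 for Kl, 0.52 for Folr1, 0.43 for Cldn1, 0.34 for Cldn2 and 0.23 for Prlr. With the arrays exchanged, 8 of the 10 relations over mice passed, and Cldn1 did not (r = 0.50, adjusted p = 0.229). Both genes of a relation were read in the same channels, so an error in the identity of a channel leaves them together. Prlr had r = -0.20 and rho = 0.006 (permutation p = 0.584 and 1, adjusted p = 0.735 and 1).

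**Figure D3:**
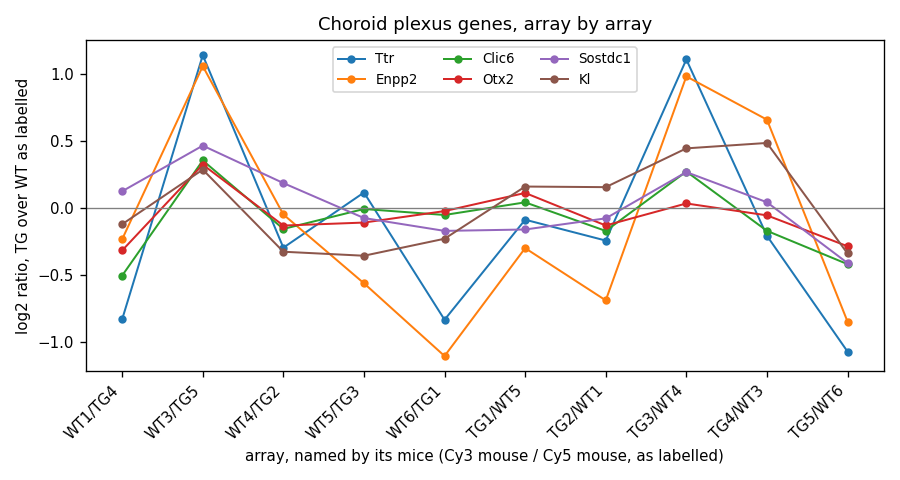
Log2 ratio (vertical, TG over WT as labelled) of Ttr, Enpp2, Clic6, Otx2, Sostdc1 and Kl on each array (horizontal, named by its mice); the lines only join the values of a gene. These 6 are above 0 on arrays WT3/TG5 and TG3/WT4 and below 0 on TG5/WT6; of the 5 members not drawn, Cldn1 (-0.03), Cldn2 (-0.14) and Prlr (-0.07) were below 0 on TG3/WT4 and Folr1 (0.008) was above 0 on TG5/WT6.

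The mean ratio over the 11 choroid plexus members was 0.39 on array WT3/TG5, 0.29 on TG3/WT4, -0.35 on TG5/WT6, -0.22 on WT6/TG1 and -0.20 on WT1/TG4. The mean over 18 other choroid plexus genes (Kcne2, Calml4, Slc13a4 and others) was 0.13, 0.13, -0.07, -0.07 and -0.10 on the same arrays, so it had the same sign on each of these 5. On the other 5 arrays both means were nearer 0: they were -0.06 and -0.06 on WT4/TG2, -0.07 and -0.04 on WT5/TG3, -0.16 and -0.06 on TG2/WT1, and of opposite sign on TG1/WT5 (-0.02 and 0.04) and TG4/WT3 (0.04 and -0.01). Among the 18, Cab39l was the one called, lower in TG at -0.13 ± 0.03 (SE, n = 10 arrays, limma FDR 0.0461), against 8.10% of all genes called. The means over 7 ependymal genes were 0.21, 0.14, 0.03, 0.07 and -0.03, and those over 9 genes of the thalamus and habenula were 0.01, 0.03, 0.13, 0.10 and -0.16. The part of any admixed tissue in these ratios was not tested.

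Over all compartments, 6 members (15.8%) were among the 5.00% of genes with the largest SD over the arrays: Ttr, Enpp2, Igf2, Ptgds, Ly6c1 and Acta2. Also among them were 4 of 13 hippocampal neuron genes, 3 of 9 oligodendrocyte genes, 2 of 5 genes of blood and 1 of 10 microglial genes. For ependymal genes it was 0 of 7, and for the thalamus and habenula 0 of 9. Among other genes of the members' compartments it was 0 of 18 choroid plexus, 2 of 23 meningeal, 1 of 24 endothelial and 0 of 14 mural genes. Their median SDs were 0.121, 0.170, 0.129 and 0.101. The median SD was 0.190 over the members, 0.169 over the neuron genes and 0.291 over the oligodendrocyte genes. A large spread was thus not particular to the members. The SD of a gene also depends on its brightness and on how many probes were averaged.

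**Figure D4:**
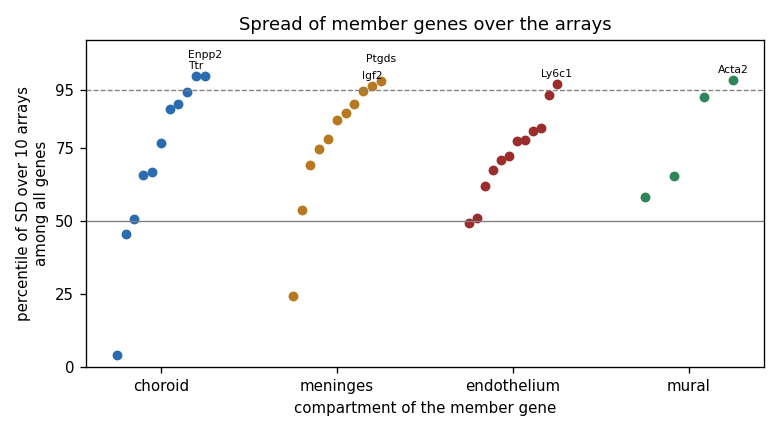
Percentile (vertical) of each member's SD over the 10 arrays among all genes, by compartment; the dashed line marks the 95th percentile and the solid line the median gene. Ttr and Enpp2 stand at 99.6, Acta2 at 98.2, Ptgds at 98.1, Ly6c1 at 97.0 and Igf2 at 96.2, and Cldn1 is lowest at 4.14.

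Among the 11 meningeal members, Igfbp2 alone was called. Its ratio ran from -0.13 on WT6/TG1 to 0.54 on WT3/TG5 with a median of 0.24, and was above 0 on 8 of 10 arrays. The mean was 0.22 ± 0.06 (SE, n = 10 arrays, limma FDR 0.0769). As labelled, the levels of the WT mice were 8.17, 8.25, 8.30, 8.31 and 8.37 and those of the TG mice 8.37, 8.39, 8.44, 8.54 and 8.76 (log2). The highest WT mouse, WT5, and the lowest TG mouse, TG4, were both at 8.37 after rounding, with WT5 just below. With the arrays exchanged the levels interleaved, from 8.12 in TG1 to 8.77 in WT1.

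Igf2 had a larger mean that was not called: 0.32 ± 0.11 (SE, n = 10 arrays, limma FDR 0.124), from -0.18 to 0.93 with a median of 0.25. It and Igfbp2 were at or below 0 on the same arrays, WT6/TG1 and TG2/WT1, and Igf2 also on TG5/WT6. Both probes of Igf2 had like means, 0.33 and 0.31. Igf2 was called under 4 of the 31 alternative settings, among them without mouse WT6 (0.43, limma FDR 0.0492) and without array WT6/TG1 (0.38, limma FDR 0.0745).

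The collagens that fibroblasts secrete showed no called ratio. Col1a2 had a mean of 0.04 ± 0.05 (SE, n = 10 arrays, limma FDR 0.819) and ranged from -0.17 to 0.28 with a median of 0.04. Col1a1 was at 0.02 and Col3a1 at 0.02. The small proteoglycans Dcn, Lum and Ogn had means of 0.06, -0.12 and -0.16, with FDRs of 0.775, 0.404 and 0.405. Ogn was called without mouse WT5 (-0.30, limma FDR 0.0535) and under no other alternative. Slc6a13, a transporter of GABA and taurine, and Aldh1a2, a retinoic acid synthase, were at -0.06 and -0.03.

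Ptgds, the prostaglandin D synthase of the meninges that oligodendrocytes and the choroid plexus also make, had the largest spread of the compartment. Its ratio ran from -0.73 on WT6/TG1 to 0.64 on TG1/WT5, the 2 arrays that share mouse TG1 as labelled, and its median was -0.09. The mean was -0.03 ± 0.14 (SE, n = 10 arrays, limma FDR 0.951). Between the channels of a mouse r was -0.27 as labelled and 0.15 exchanged.

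None of the 10 relations of meningeal genes with Col1a2 over mice passed, and 7 were positive with a median r of 0.11. The highest were Aldh1a2 with r = 0.44 and rho = 0.27 (permutation p = 0.205 and 0.448, adjusted p = 0.333 and 0.635) and Igf2 with r = 0.40 and rho = 0.64 (permutation p = 0.261 and 0.0552, adjusted p = 0.385 and 0.156). With the arrays exchanged Aldh1a2 reached r = 0.72 (adjusted p = 0.059). Over the ratios of the 10 arrays, again as a description, r with Col1a2 was 0.73 for Ptgds, 0.69 for Slc6a13, 0.64 for Igf2, 0.62 for Ogn and 0.56 for Igfbp2, and between -0.31 and 0.28 for the other 5. Among 23 other meningeal genes, 2 were called, against 8.10% of all genes. These were Slc47a1 and Foxc1, both lower in TG at -0.13 and -0.20 with limma FDRs of 0.0473 and 0.0541.

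The endothelial members leaned to one side: 9 of the 12 had means below 0 as labelled, with a median of -0.10, beside 0.003 over all genes. Cldn5 is the main claudin of endothelial tight junctions, Slco1a4 an organic anion transporter and Itm2a a membrane protein. Median centring in place of loess ended all 3 calls, with values of -0.16 for Cldn5 (limma FDR 0.53), -0.13 for Slco1a4 (limma FDR 0.683) and -0.18 for Itm2a (limma FDR 0.671). Robust regression ended those of Slco1a4 (limma FDR 0.116) and Itm2a (limma FDR 0.237).

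The ratio of Cldn5 ran from -0.54 on WT1/TG4 to 0.14 on TG1/WT5 with a median of -0.25, and was below 0 on 9 of 10 arrays. Its mean was -0.25 ± 0.06 (SE, n = 10 arrays, limma FDR 0.0387). As labelled, the WT levels were 9.29, 9.30, 9.35, 9.39 and 9.50 and the TG levels 8.76, 9.13, 9.21, 9.24 and 9.25. The groups did not overlap, and TG4 was lowest. Without either array of TG4 the mean of Cldn5 was -0.18 (limma FDR 0.0838). With the arrays exchanged the levels of the 2 genotypes overlapped at TG1 (9.23), WT1 and WT4 (both 9.24).

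Cldn5 kept its call without any single array (limma FDR 0.0289 to 0.0909). With mice as labelled, it lost the call without both arrays of WT3 (-0.21, limma FDR 0.176), WT4 (-0.25, limma FDR 0.154), TG2 (-0.26, limma FDR 0.102), TG3 (-0.26, limma FDR 0.109) or TG5 (-0.25, limma FDR 0.117).

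Slco1a4 ran from -0.48 on TG4/WT3 to 0.03 on WT6/TG1 with a median of -0.18, and was below 0 on 9 of 10 arrays. Its mean was -0.20 ± 0.05 (SE, n = 10 arrays, limma FDR 0.0487). The mean was -0.08 ± 0.09 (SD, n = 5) on the arrays with WT in Cy3 and -0.32 ± 0.14 (SD, n = 5) on those with TG in Cy3, and a dye term beside the genotype passed (0.12, limma FDR 0.0475). At an FDR of 0.1 the dye term also passed for Prlr, Cldn2, Col1a1, Col3a1, Tagln and Lum (limma FDRs 0.0244, 0.0513, 0.0818, 0.0836, 0.0863 and 0.0944). The share of all genes with such a term is not given here. The WT levels were 8.45, 8.55, 8.59, 8.62 and 8.65, and the TG levels were 8.21, 8.30, 8.41, 8.43 and 8.52. TG2 thus lay above WT1 and all other TG mice below every WT mouse. With the arrays exchanged, TG1 (8.38) lay below WT3 (8.52), WT4 (8.43) and WT6 (8.49), and the other TG mice lay above every WT mouse. The call held without 8 of the 10 arrays and was lost without WT3/TG5 (limma FDR 0.101) and TG1/WT5 (limma FDR 0.117). Without both arrays of a mouse it held for 2 of 10 mice, with FDRs from 0.04 to 0.185.

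Itm2a ran from -0.78 on TG4/WT3 to 0.11 on WT5/TG3 with a median of -0.28. Its mean was -0.29 ± 0.09 (SE, n = 10 arrays, limma FDR 0.0875). The WT levels were 10.11, 10.15, 10.33, 10.71 and 10.88, whereas the TG levels lay between 10.05 and 10.29. As labelled, the difference thus came with 2 high mice, WT3 and WT4: without WT3 the mean was -0.21 (limma FDR 0.317) and without WT4 -0.22 (limma FDR 0.315). With the arrays exchanged the 2 highest mice were TG3 (10.9) and TG2 (10.7). The call held without 4 of the 10 arrays and without 1 of the 10 mice. It was also lost when a spot flagged by the scanner software was left out (-0.26, limma FDR 0.143).

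The call of Igfbp2 held without 3 of the 10 arrays and without 3 of the 10 mice, with FDRs from 0.0327 to 0.277. It was lost with robust regression (0.22, limma FDR 0.129) and kept with median centring (0.29, limma FDR 0.0957).

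The other endothelial members were not called. The VEGF receptors Flt1 and Kdr had means of -0.14 and -0.10 with FDRs of 0.111 and 0.248, and the 2 probes of Flt1 were both at -0.14. Slc2a1, the glucose transporter of the barrier, was at -0.17 (limma FDR 0.106). Vwf was at -0.11, Pecam1 at -0.08 and Tek, the angiopoietin receptor, at -0.04. The thyroid hormone transporter Slco1c1 was at 0.02 and the cadherin Cdh5 at 0.09. Ly6c1, whose sequence is close to that of Ly6c2 so that the 2 may share signal, had the largest spread, from -0.32 on TG5/WT6 to 1.02 on TG1/WT5, with a mean of 0.27 ± 0.12 (SE, n = 10 arrays, limma FDR 0.238).

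Within the endothelial members, 2 of 11 relations with Cldn5 over mice passed. Slco1a4 had r = 0.90 and rho = 0.93 (permutation p = 3e-05 and 0.00025, adjusted p = 0.00051 and 0.00306), and r was 0.88 without the 2 farthest mice TG4 and WT4 and 0.72 with the arrays exchanged (adjusted p = 0.049). Over the ratios of the 10 arrays, however, r between Slco1a4 and Cldn5 was -0.008. Cdh5 went the other way, with r = -0.90 and rho = -0.65 (permutation p = 0.00742 and 0.0499, adjusted p = 0.0344 and 0.154), and r was -0.48 without those mice. With the arrays exchanged Cdh5 did not pass (r = -0.77, adjusted p = 0.113, and r = 0.02 without the 2 mice then farthest), whereas Slc2a1 did (r = 0.68, adjusted p = 0.0718). Cldn5 itself is a gene called by genotype. As deviations from the genotype mean, r was 0.82 for Slco1a4 and -0.92 for Cdh5.

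Of 24 other endothelial genes, 5 were called, 4 of them higher in TG as labelled. Over all genes 8.10% were called and 4.00% called higher. Cd34, a sialomucin of endothelial and progenitor cells, was lower at -0.40 ± 0.05 (SE, n = 10 arrays, limma FDR 0.00356) and below 0 on every array. With 1 value per mouse as labelled, Cd34 was called too (limma FDR 0.0358), against 0.0834% of all genes. Ramp2, Egfl7, Ly6a and Ctla2a were higher at 0.27, 0.22, 0.31 and 0.19, with limma FDRs of 0.048, 0.051, 0.0524 and 0.085. The median over the 24 was 0.01, so the lean of the 12 members was not seen in the longer list.

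The 4 mural members had no call. Tagln, the actin-binding protein transgelin, came nearest at 0.13 ± 0.04 (SE, n = 10 arrays, limma FDR 0.101), above 0 on 8 of 10 arrays. Its mean was 0.04 on the arrays with WT in Cy3 and 0.22 on those with TG in Cy3. Pdgfrb, the receptor that pericytes depend on, was at 0.16 ± 0.08 (SE, n = 10 arrays, limma FDR 0.364) and Rgs5, a pericyte marker, at 0.006. Of 14 other mural genes, 1 was called, against 8.10% of all genes. It was Higd1b, higher in TG at 0.23 ± 0.05 (SE, n = 10 arrays, limma FDR 0.0365) and above 0 on every array.

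Acta2, smooth muscle actin, had a mean of -0.18 ± 0.14 (SE, n = 10 arrays, limma FDR 0.574) and a median of 0.01, with values from -1.21 to 0.20. Its 3 probes disagreed. Probe A_51_P450957 was at -2.74 on WT1/TG4 and -3.20 on TG4/WT3 and between -0.32 and 0.63 on the other 8 arrays. The raw intensity of this probe for mouse TG4 was 509 in Cy5 and 498 in Cy3, against 1906 to 8735 in all other channels. Probes A_52_P420504 and A_52_P210078 had values of -0.31 and 0.004 on WT1/TG4 and -0.24 and -0.18 on TG4/WT3. The low mean of Acta2 on these 2 arrays thus came mostly from 1 probe of 3.

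**Figure D5:**
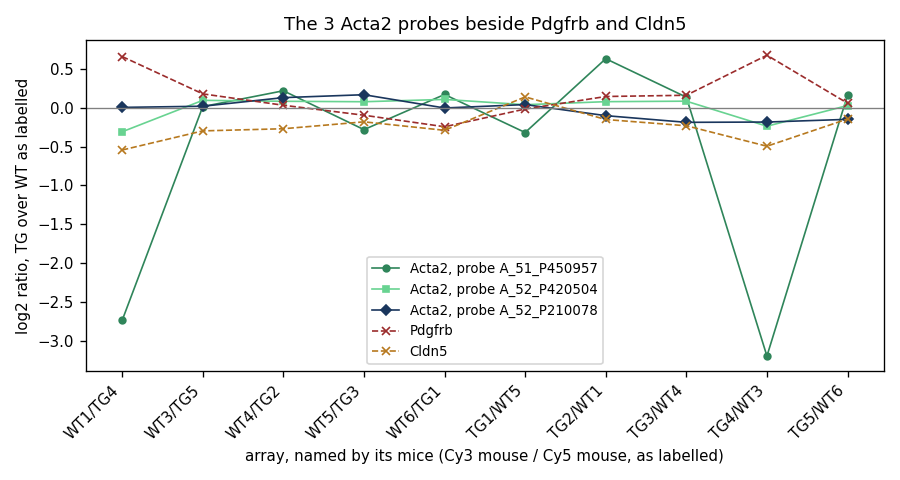
Log2 ratio (vertical, TG over WT as labelled) of the 3 Acta2 probes, Pdgfrb and Cldn5 on each array (horizontal, named by its mice); the lines only join the values of a probe. Probe A_51_P450957 falls to -2.74 and -3.20 on the 2 arrays of mouse TG4, where the other Acta2 probes lie between -0.31 and 0.004 and Pdgfrb is at 0.66 and 0.68.

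The mouse on these 2 arrays stood apart in other members too. It is TG4 as labelled and WT5 with the arrays exchanged. Pdgfrb was at 0.66 and 0.68 on WT1/TG4 and TG4/WT3 and at most 0.18 elsewhere, and Cdh5 was at 0.40 and 0.50 there and at most 0.12 elsewhere. Over mice Pdgfrb had r = -0.93 and rho = -0.52 with Acta2 (permutation p = 0.015 and 0.134, adjusted p = 0.0519 and 0.284), and r was -0.43 without TG4 and WT1. On the same 2 arrays the mean ratio over 9 oligodendrocyte genes was -0.60 and -0.38 and that over 13 hippocampal neuron genes -0.46 and -0.32. The part of these in the member ratios was not tested. Over all genes the ratios of the 2 arrays correlated at 0.75, and the highest value of any other pair of arrays was 0.73. Of the lists of other cell types, 1 of 9 oligodendrocyte genes (Mbp, lower), 2 of 10 microglial genes (P2ry12, lower, and Tmem119, higher), 1 of 5 genes of blood (Alas2, lower), 2 of 13 hippocampal neuron genes (C1ql2, lower, and Calb1, higher), 2 of 9 genes of the thalamus and habenula (Tac1, lower, and Zic1, higher) and 0 of 7 ependymal genes (3 of them with an unadjusted p under 0.05) were called by limma. The share of all genes called was 8.10%, and 6623 of 34770 genes had an unadjusted p under 0.05 in the same limma fit. These lists are short.

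With 1 value per mouse, none of the 38 members was called by limma at an FDR of 0.1, against 0.0834% of all genes as labelled and 0.0316% with the arrays exchanged. As labelled, 7 members (18.4%) had an unadjusted p under 0.05, beside 8.17% of all genes. They were Igf2, Igfbp2, Slco1a4, Cldn5, Tagln, Slc2a1 and Ly6c1, with FDRs from 0.34 to 0.533. The differences are those of the array fit, and the 10 arrays hold 10 mice each used on 2 of them, so that the array fit takes as independent what shares mice.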

How the data were processed

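The 10 Agilent files were used as deposited: output of Feature Extraction 8.5.1.1 with mean pixel intensity per channel, and a log10 ratio made by the authors' scanner software. The submitters' notes name limma. No identifier in the ABI file matched a member, so the planned ABI comparison was not run. The columns of the Illumina file are not paired with mice by the labels, so it was not used. Affymetrix and LGTC arrays were not analysed here. Of 41174 probes, 22080 were named by RefSeq accession (GRCm38.p6) and 1180 by the description alone. An unnamed probe counted as a gene.

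Each array's ratios were loess-normalized, with neither background correction nor a filter, and averaged over spots, probes and genes (limma 3.58.1, R 4.3.3; Benjamini-Hochberg over 34770 genes). Levels per mouse were the mean of its 2 channels after loess and quantile normalization of average intensities. Correlations used 100000 two-sided permutations. In each array, 80.2% to 88.5% of the spots were well above background in both channels; the number of arrays limits the precision. All members and lists were chosen with earlier results of these data known. Values in full are given for called members, the lead genes (Ttr, Col1a2, Cldn5, Acta2) and the member of largest SD per compartment; Igf2 and other members at the edge of a call were singled out after their values were seen.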

Additional observations from a re-analysis of the deposited data

Results flagged for a closer look

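Among 114 groups of values examined, 8 held a value whose gap to its nearest neighbour was large against the range of its group (Dixon's 95% criterion, which chance passes in about 1 in 20 groups). Of these, 4 belong to mouse TG4 as labelled, against the other TG mice: Acta2 at a level of 7.86 (others 8.94 to 9.03), Cldn5 at 8.76 (others 9.13 to 9.25), Cdh5 at 6.52 (others 6.12 to 6.18) and Pdgfrb at 7.66 (others 7.05 to 7.13). Mouse TG2 had Ogn at 6.90 (others 7.35 to 7.47). Mouse WT5 had Tagln at 7.78 (others 7.94 to 7.99). Of the ratios on single arrays, Tagln at 0.42 on TG1/WT5 and Col1a1 at -0.16 on TG3/WT4 stood apart. The cause of these was not tested.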

How the results depend on the processing

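Of the 38 members, 4 were called on the array log ratios, against 8.10% of all genes. The number was 2 with median centring in place of loess (both higher in TG, neither lower), 7 with present probes alone, 1 with robust regression, 2 at an FDR of 0.05 and 0 with 1 value per mouse. It stayed within 1.5 times of 4 under the other settings that keep all arrays. Without single arrays it was 1 to 6 and without both arrays of a mouse as labelled 0 to 5. These counts are not set here against the share of all genes called under the same setting. Whether a change is particular to the members can thus not be read from them. With the arrays exchanged, 3 members were higher and 1 lower in place of 1 and 3. A further 6 members were called under at least 1 alternative. The 28 others were called under none, and 14 of them changed sign under at least 1. No reversal of a called ratio occurred other than by the exchange.

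With 1 value per mouse no member was called under any alternative, and the replicate block over the 4 pairs of mice that share a number gave 0. The numbers did not pair the mice: deviations from the genotype mean correlated at -0.20, -0.17, -0.08 and -0.21. A block for slide or scan was not run: the scan cannot be split, and slide series and dye orientation cannot be told apart.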

Other observations

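After Ttr had been seen, a further assignment was tried: the arrays exchanged and, besides, the Cy3 channels of the arrays labelled TG2/WT1 and TG3/WT4 traded. It was chosen on Ttr, for which the correlation between both channels of a mouse went from 0.27 to 0.95, so its values are a description. It was 0.95 for Enpp2 (0.44 with the exchange alone), 0.94 for Igf2 (0.67), 0.82 for Igfbp2 (0.58), 0.91 for Aqp1 (0.45) and 0.90 for Clic6 (0.31). Enpp2, Aqp1 and Clic6 moved with Ttr over the mice (r 0.85, 0.95 and 0.96 as labelled), so their rise is not independent of that choice. The correlation between both channels was 0.86 for Cldn5 and 0.96 for Acta2, which were at 0.86 and 0.97 before. Among others it fell for Flt1 from 0.67 to 0.41, for Prlr from 0.23 to -0.04 and for Kdr from -0.15 to -0.34. Over all genes the median fell from 0.10 to 0.07. Genotypes stay as in the exchange, and no member was called with 1 value per mouse.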
